A study of Mus musculus with 4 samples.

Results

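The genes described here are 53 synaptic adhesion molecule genes in 14 families, chosen by name and family and not by any measured value, out of 21770 protein-coding genes on the assembled chromosomes. The measurement was CTCF chromatin immunoprecipitation followed by sequencing in primary cortical neurons of wild-type Swiss-Webster mice, taken at embryonic day 16 and kept for 13 days in culture. There were 2 CTCF immunoprecipitations and 2 inputs, and each replicate held about 15M cells, crosslinked with 1% formaldehyde over 10 minutes. All 4 samples were wild-type and carried no treatment, although the culture text shared by the labels mentions a drug. The labels name no marker, sex or cell subtype, so neurons and other cells of a cortical culture cannot be told apart. No condition was compared: the results are the places of CTCF peaks at these genes beside those at protein-coding genes of the same length.

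The zinc finger protein CTCF recognises a long DNA motif and, with cohesin, holds the bases of chromatin loops, and it also binds at many promoters. Synaptic adhesion molecules are membrane proteins that reach across the synaptic cleft, where presynaptic proteins such as neurexins and LAR-type receptor phosphatases meet postsynaptic partners such as neuroligins, LRRTMs and SLITRKs. Many of their genes are among the longest of the genome, while others, such as the SLITRK genes, are short and compact.

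Each peak was placed by its summit, the base of highest signal. A summit within 1 kb of either bound of a gene counted as an end peak, one farther inside as an inside peak, and one outside and up to 50 kb away as a flank peak. The strength of a peak is the deposited sum of the −log10 p of its matched peaks in both replicates, and its 2 parts are given as the first and the second replicate column, because the list does not tie them to a labelled replicate. The list held 33820 peaks, with a median strength of 165.5 over the 33815 on assembled chromosomes. The depth of the libraries is unknown, and strengths are compared only within the list. Gene bounds are those of RefSeq on GRCm38.p6, without exons, so exonic and intronic peaks were not separated. The genes ranged from the 3.6 kb of Lrrc4 to the 2270.5 kb of Ptprd, with a median of 161.8 kb against 17.2 kb over all protein-coding genes.

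A CTCF summit lay within 1 kb of an end in 27 of the 53 genes, which is 50.9% (exact 95% interval 36.8 to 64.9%), against 29.2% of all protein-coding genes and 38.3% at the same lengths. Farther inside, 38 genes held at least 1 summit, or 71.7% (exact 95% interval 57.7 to 83.2%), against 35.5% of all protein-coding genes and 64.1% at the same lengths. In the 50 kb flanks, 33 genes had a summit, or 62.3% (exact 95% interval 47.9 to 75.2%), against 77.1% of all and 68.8% at the same lengths. With these windows the same-length share lay inside the interval each time. That changed in 3 of 10 alternatives for the ends, 2 of 9 for the flanks and 0 of 9 for the inside. Without the genes over 1000 kb, 23 of 43 genes had an end peak, or 53.5% (exact 95% interval 37.7 to 68.8%) against 35.9% at the same lengths, and 25 had a flank peak, or 58.1% (42.1 to 73.0%) against 74.9%. With ends that share no other gene's end within 2 kb, it was 25 of 51 genes, or 49.0% (34.8 to 63.4%) against 33.9%, and with flanks of 100 kb, 69.8% (55.7 to 81.7%) against 81.8%. An end or inside peak was present in 46 genes, or 86.8% (exact 95% interval 74.7 to 94.5%), against 51.6% of all protein-coding genes. The latter have a far lower median length, and no same-length share was computed for this count. Only Nrxn2, Slitrk1 and Slitrk4 had no summit in any of the 3 places. The end count depended on the window: with 500 bp it was 15 genes, or 28.3% against 26.4% at the same lengths, and with 5 kb it was 42 genes, or 79.2% (exact 95% interval 65.9 to 89.2%) against 60.6%. With flanks of 20 kb in place of 50 kb, the difference from genes of the same length turned from −6.55 to 5.64 percentage points.

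**Figure D1:**
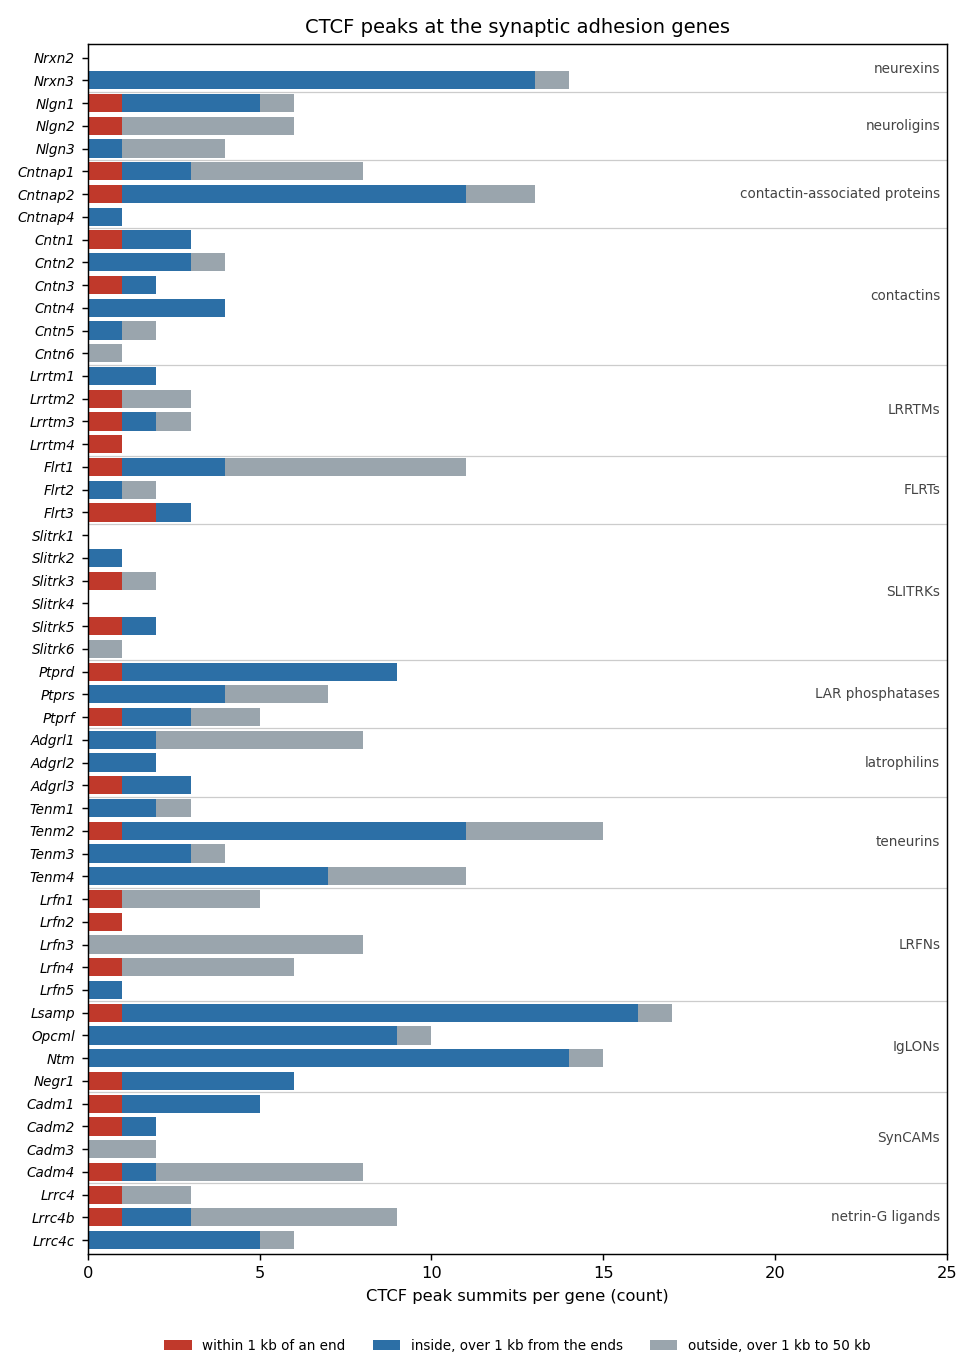
Each bar is 1 of the 53 genes and shows the number of CTCF summits at its ends, inside it and in its 50 kb flanks, in different colours. Lsamp, Ntm and Nrxn3 have the most summits inside, with 15, 14 and 13, and the bars of Nrxn2, Slitrk1 and Slitrk4 are at 0.

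Many of the shortest genes of the list carried an end peak. End peaks were present in 4 of 7 genes under 10 kb, where 21.5% of other protein-coding genes of that length had one, and in 7 of 10 genes of 10 to 30 kb, where the share of others was 29.5%. They were present in 2 of 8 genes of 30 to 100 kb (33.7% of others), in 3 of 5 of 100 to 300 kb (41.7%), in 7 of 13 of 300 to 1000 kb (47.5%) and in 4 of 10 over 1000 kb (49.0%). Each class holds few genes, and their exact intervals are wide: for the 7 of 10 it ran from 34.8 to 93.3%. By the side of the synapse where the proteins are best known, an end peak was found in 14 of 24 postsynaptic genes (58.3%, against 31.8% at the same lengths), 7 of 15 genes acting on both sides (46.7% against 44.5%), 4 of 9 axonal genes (44.4% against 43.8%) and 2 of 5 presynaptic genes (40.0% against 41.4%). The sides differ in gene length, and their exact 95% intervals overlap, from 36.6 to 77.9% for the postsynaptic and 5.27 to 85.3% for the presynaptic genes.

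Strand was known for 42 of the genes, from their RefSeq start windows, and 20 of these had an end peak. The peak lay at the 5′ end in 17 of the 20 and at the 3′ end in Slitrk3, Lrrc4 and Lrrc4b, so 85.0% were at the 5′ end, close to the 84.8% of all protein-coding genes with an end peak and a strand. A 5′ bound is the outermost start of a gene: the end peaks of Cntn3 and Tenm2 lay 99729 and 292257 bp from the start listed for them in the RefSeq window table.

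Of the 58 RefSeq start windows that matched the 42 genes, each running from 250 bases before a start to 50 after it, 7 windows of 6 genes held a summit. That is 12.1% of the 58, against 6.08% of all 32851 start windows. A run of CCANNAGNNGGC, the core of the CTCF motif, on either strand was in none of the 58, against 2.43% of all 32851 start windows and 12.4% of the 1996 with a summit. With a looser search, chosen after the first result was seen, at least 10 of the 12 letters of a core consensus had to match. Such a match was in 17 of the 58 windows, or 29.3%, against 29.8% of all windows, and in 4 of the 7 with a summit, against 67.2% of all windows with one. The sequences of 3 of these 4 are shown, those with a match whole in the stretch printed, from 170 bases before the start to 30 after it, read 5′ to 3′ along the gene, with the matched letters in capitals. They are RefSeq sequence of GRCm38.p6: Lsamp at chr16:39984194-39984393 on the plus strand, an internal start of Nlgn1 at chr3:26153957-26154156 on the minus strand, and Lrfn4 at chr19:4615638-4615837 on the minus strand.
Lsamp: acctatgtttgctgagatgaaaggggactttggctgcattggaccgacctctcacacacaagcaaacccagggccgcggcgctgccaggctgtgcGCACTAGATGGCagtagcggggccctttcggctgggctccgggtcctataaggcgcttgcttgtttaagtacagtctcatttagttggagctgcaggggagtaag
Nlgn1 internal start: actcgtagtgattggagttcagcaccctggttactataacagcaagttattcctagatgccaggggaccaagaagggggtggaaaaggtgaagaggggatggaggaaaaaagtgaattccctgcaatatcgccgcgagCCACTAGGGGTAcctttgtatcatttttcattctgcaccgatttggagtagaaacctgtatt
Lrfn4: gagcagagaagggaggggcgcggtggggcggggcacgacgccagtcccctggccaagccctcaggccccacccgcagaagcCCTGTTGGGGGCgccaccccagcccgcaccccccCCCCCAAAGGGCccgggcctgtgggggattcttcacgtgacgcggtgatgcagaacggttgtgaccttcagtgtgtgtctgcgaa
In Lsamp the match GCACTAGATGGC, with 11 of 12 letters, began 75 bases before the start and the summit lay 78 bases before it. At the internal start of Nlgn1 the match CCACTAGGGGTA, with 10 letters, began 32 bases before the start and the summit lay 7 bases after it. The Lrfn4 stretch held 2 matches of 10 letters on the sense strand, CCTGTTGGGGGC and CCCCCAAAGGGC, and its summit lay 60 bases before the start. In the fourth window, Lrrtm4, which is not printed because its match runs past that stretch, the match CCAGCGGAGGGC of 11 letters began 25 bases after the start and the summit lay 13 bases after it. The windows of Flrt3, Lrrtm3 and the upper start of Nlgn1 reached 9 letters. The 7 windows had a median GC content of 51.3% and a median of 10 CpG, against 63.0% and 23 over all windows with a summit. A match describes letters in these windows and is not a binding site by itself.

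Among the neurexins, presynaptic receptors that bind neuroligins and LRRTMs, neither analysed gene had an end peak. Nrxn3 (chr12:88722701-90334935) held 13 inside peaks, with strengths from 58.0 to 361 and a median of 173. Of these, 9 fell in the second 25% of its length from the 5′ end and none in the last 25%, so the peaks stood in a cluster and not evenly along the gene. Its strongest inside peak, chr12:89106189-89107193, had a −log10 p of 114 (first column) and 247 (second), and another peak of strength 125 lay 450 bp from an internal RefSeq start. Nrxn2 (chr19:6418756-6533217) had no summit inside or within 50 kb, and 82 of the 100 protein-coding genes nearest to it in length had at least 1 inside. It lay in a stretch of 688.6 kb between neighbouring summits that holds 14 protein-coding genes, and its nearest summit was 277503 bp away.

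The neuroligins are postsynaptic partners of the neurexins, with Nlgn1 best known from excitatory and Nlgn2 from inhibitory synapses. Nlgn1 had an end peak of strength 289, at 130.4 and 158 in the replicate columns, and it also lies within 1 kb of the end of the transcript gene A830092H15Rik. Of its 4 inside peaks the strongest, at 355, was the one at the internal start shown above, with 33.7 and 322 in the replicate columns. Nlgn2 had an end peak of 91.2, with 34.0 and 57.2 in the columns, 651 bp from its 5′ bound, and a flank peak of 975 at 19169 bp. Nlgn3, on the X chromosome, had no end peak and its first summit, of strength 68.4, was 2717 bp inside a bound.

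The LRRTM proteins are postsynaptic leucine-rich repeat partners of the neurexins, and 3 of the 4 genes had an end peak. Lrrtm3 reached 288 (77.3 in the first column and 210.4 in the second), 41 bp from its 5′ bound. Lrrtm4 reached 178 (17.1 and 161), 32 bp from its 5′ bound, and Lrrtm2 40.3 (11.6 and 28.7), 800 bp from its upper bound. The second column was higher in all 3. Lrrtm4 is 791.3 kb long and held no inside peak, which 97 of its 100 nearest genes in length did. Lrrtm1, Lrrtm2 and Lrrtm3 lie within the catenin genes Ctnna2, Ctnna1 and Ctnna3, so summits inside them are also summits inside those genes. Flrt1, Flrt3, Lrfn4, Lrrc4, Cntnap1 and Lsamp likewise overlap Macrod1, Macrod2, Pcx, Snd1, Ccr10 and Gm52229. Summits in the overlap cannot be given to 1 gene. Cadm3 overlaps Ackr1 and Aim2 but had no end or inside peak.

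SLITRKs are short-gene postsynaptic proteins that bind LAR-type phosphatases. Slitrk5 had the second strongest end peak of all 53 genes, at 1342, with 660.0 in the first column and 682 in the second (chr14:111672755-111676740, 238 bp from the 5′ bound, and also within 1 kb of the end of Gm30439). Slitrk3 had a peak of 263 at its 3′ end, with 44.3 in the first column and 219 in the second. Slitrk2 had 1 inside peak of 77.3 and none at an end. Slitrk1, Slitrk4 and Slitrk6 had neither, and each lay whole in a stretch without a summit, of 3074.4 kb for Slitrk1, 1676.2 kb for Slitrk4 and 886.4 kb for Slitrk6. The nearest summit to Slitrk1 was 926290 bp away. Over the genome there were 1510 such stretches of 300 kb or more, and 5 held a gene of the list whole, the others being those of Nrxn2 and Cntn6. A single stretch held up to 51 protein-coding genes. The share of all protein-coding genes that lie whole in such a stretch was not computed, so no excess can be read from the 5.

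The LAR-type phosphatases Ptprd, Ptprs and Ptprf are presynaptic receptors that organise release sites. Ptprd had an end peak of 315 (131 in the first column and 184 in the second) and 8 inside peaks with strengths from 38.9 to 298. Ptprf had an end peak of 152 and was stronger in the first column (89.6) than in the second (62.3). Ptprs had none at an end, but 4 inside over 64.1 kb, which 92 of its 100 nearest genes in length fell short of. One of those 4, chr17:56424876-56426652, was the strongest inside peak of all 53 genes at 695, with 369 and 326 in the columns.

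The LRFN proteins, also called SALMs, are postsynaptic adhesion proteins. Lrfn2 had the strongest end peak of the list at 2179.6, with 899.8 in the first column and 1279.9 in the second, at chr17:48930855-48933220 and 297 bp from its lower bound. It held no inside peak over its 166.0 kb, where 82 of its 100 nearest genes in length had one, so the strongest end and an empty interior fell in the same gene. Lrfn4 reached 178 (83.6 and 94.5) and Lrfn1 61.1 (29.2 and 31.9). Lrfn3 had no end or inside peak but 8 flank peaks, the most of any gene listed, and 1 of them, 7532 bp from its lower bound, had a strength of 1318. Lrfn5 held a single inside peak of 201 over 335.1 kb.

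FLRT proteins are postsynaptic ligands of latrophilins. Flrt3 was the only gene of the list with 2 end peaks, one of 274 (50.8 in the first column and 224 in the second) 88 bp from its 5′ bound and one of 51.8 (17.9 and 33.9) at 775 bp. Flrt1 had a weak end peak of 39.3 (18.1 and 21.2) and a strong inside peak of 571, 5367 bp from the upper bound. Flrt2 had none within 1 kb, and its first summit, of strength 198, was 1043 bp away, just past the window.

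Netrin-G ligands are postsynaptic proteins whose partners include netrin-Gs and, for Lrrc4b, LAR-type phosphatases. Lrrc4 and Lrrc4b had weak peaks at their 3′ ends, of 56.3 (9.45 in the first column and 46.9 in the second) and 53.8 (35.3 and 18.4). Lrrc4c, at 1313.5 kb, had no end peak and 5 inside peaks with strengths from 70.0 to 344, with a stretch of 878.0 kb between them that held none.

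Contactins and contactin-associated proteins act mostly on axons, where Cntnap1 and Cntn1 form the junctions beside the nodes of Ranvier and Cntnap2 and Cntn2 sit next to them. Cntnap1 had an end peak of 945, at 503 in the first column and 442 in the second, 617 bp from its lower bound. It also held 2 inside peaks over 16.1 kb, which 90 of its 100 nearest genes in length fell short of. Cntnap2 had a weak end peak of 62.5 (25 and 37.4) and 10 inside peaks with strengths from 47.4 to 359.9. Of these 10, 8 lay in the last 25% of the gene, and a stretch of 970.8 kb without a summit followed the peak near its start. Cntn3 had an end peak of 309 (147 and 162) and Cntn1 one of 49.6 (30.7 and 18.9). Cntn2, the shortest contactin at 33.8 kb, held 3 inside peaks, more than 97 of its 100 nearest genes, and the strongest was 408. Cntn5 held 1 over 1270.6 kb and Cntn6 none over 370.7 kb, so members of this family stood at both extremes for their length. Cntnap4 and Cntn4 had no end peak. Cntnap4 had 1 inside peak of 387, 1837 bp from its lower bound, and Cntn4 had 4, of 90.8 to 164.

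**Figure D2:**
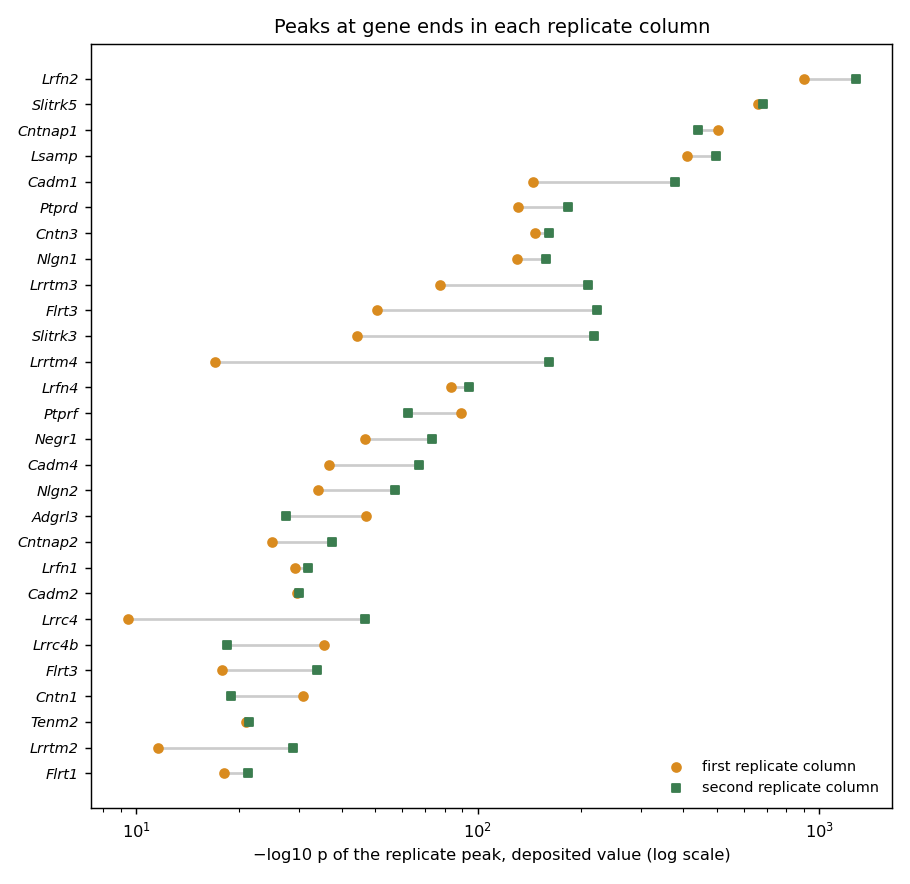
Each line is 1 of the 28 end peaks, with its deposited −log10 p on a log axis (circle, first replicate column; square, second). Lrfn2 and Slitrk5 stand highest in both columns, and the first column is the higher one in 5 peaks.

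Latrophilins are adhesion G protein-coupled receptors, and the teneurins are large proteins that bind them across the synapse. Adgrl3 had an end peak of 74.5 (46.9 in the first column and 27.5 in the second), and Adgrl1 and Adgrl2 had none. The first summit of Adgrl2 stood 1220 bp inside its 5′ bound with a strength of 661, so a window slightly wider would have counted it. Among the teneurins, Tenm2 alone had an end peak, of 42.3 (21.0 and 21.3). Inside peaks numbered 10 in Tenm2, 7 in Tenm4, 3 in Tenm3 and 2 in Tenm1. In Tenm2 their strengths ran from 52.0 to 514 and in Tenm4 from 41.1 to 441, where a peak of 415 lay 816 bp from an internal start. Tenm1, on the X chromosome and 901.3 kb long, was low for its length: 77 of its 100 nearest genes held more.

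IgLONs are immunoglobulin-domain proteins tethered to the membrane by a lipid anchor, and the 4 genes held 43 of the 151 inside peaks, the most of any family. All 4 are long, from 754.7 to 2197.4 kb, and no count expected for their length was computed by family. Lsamp (chr16:39984254-42181679) had an end peak of 907, with 409 in the first column and 498 in the second, 32 bp from its 5′ bound, at the start shown above. It held 15 inside peaks with strengths from 60.0 to 536, and 93 of its 100 nearest genes in length held fewer. Few genes are as long as Lsamp: those 100 ran from 718.4 to 2390.4 kb and 49 protein-coding genes outside the list exceed 1000 kb, so this rank is mostly against shorter genes. The peaks of 534, 536 and 418 stood 16505, 11752 and 8988 bp from its 3′ end, so strong peaks sat close to both ends. How many of the 15 lie in the overlap of Lsamp with Gm52229 was not counted. Ntm held 14 inside peaks over 968.5 kb, with strengths from 39.9 to 561 and 93 of its 100 nearest genes below it. Opcml, which lies next to Ntm on the same chromosome, held 9, with a lowest strength of 51.7 and a median of 159.8, and 6 of them fell in the second 25% of its length. Negr1 held 5, of 48.1 to 254, and an end peak of 120.2 (46.8 and 73.5) that also lies within 1 kb of the end of 4930570G19Rik.

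SynCAM proteins are immunoglobulin-domain molecules of both sides of the synapse. Cadm1 had an end peak of 523 (145 in the first column and 378 in the second), Cadm4 one of 104 (36.6 and 67.3) and Cadm2 one of 59.5 (29.5 and 30.0). Cadm2 is 965.5 kb long and held a single inside peak, fewer than 88 of its 100 nearest genes. Cadm1, at 332.1 kb, held 4 inside peaks, of 157 to 361, and Cadm3 had neither an end nor an inside peak.

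The median strength of the 28 end peaks was 136 (middle range 58.7 to 294), against 160.7 (71.3 to 403) over 6094 end peaks of all protein-coding genes. At an IDR of 0.01 or less, the median of those that remained at the listed genes was 263. The median was 45.5 in the first column and 70.4 in the second, and 5 of the 28 were stronger in the first, or 17.9% against 28.9% of all end peaks. A further 15 genes without an end peak had their first summit 1 to 5 kb from a bound, 9 outside and 6 inside. From a window of 1 kb to one of 5 kb the end share rose from 50.9 to 79.2%. That of genes of the same length rose as well, from 38.3 to 60.6%. The values just past the window ran from Flrt2 at 1043 bp and Adgrl2 at 1220 bp to Slitrk2 at 3844 bp and Cntn5 at 4970 bp. Just inside it stood Nlgn1 at 994 bp and Lrrc4 at 976 bp.

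The 53 genes held 151 inside peaks over 25.6 Mb, or 0.589 per 100 kb, against 0.688 at the density of protein-coding genes of the same length, where 176.5 peaks would stand in their place. No interval was computed for this total, so no shortfall is read from it. The difference was uneven by length. The groups of 10 to 100 and 100 to 1000 kb given here each join 2 of the 6 length classes that departed in the same direction. Their intervals therefore describe the counts and are no separate support for a difference. Density in other genes fell from class to class with length, and the class density takes no account of length within a class. Genes of 10 to 100 kb held 25 inside peaks (exact 95% Poisson interval 16.2 to 36.9) against 12.4 at the same-length density, and 12 of these 18 genes were above the mean of their 100 nearest genes. Genes of 100 to 1000 kb held 47 (34.5 to 62.5) against 89.1, and 3 of these 18 were above that mean. Genes over 1000 kb held 78 (61.7 to 97.3) against 74.1 at the density of the 49 others of that class. Of these 10 genes, 6 were above the mean of their 100 nearest, but those nearest genes reach down to 688.6 kb, so the mean is not a same-length value. Where that mean is under 1, as for Cntn2 at 0.59, a single summit already puts a gene above it. The share of other genes above their own such mean was not computed. No excess or deficit can therefore be read from the counts of genes above it. The intervals cover counting error only, and peaks of 1 gene are not independent. In shares of genes, 1 of 7 genes under 10 kb held an inside peak (8.60% of other protein-coding genes of that length), as did 6 of 10 of 10 to 30 kb (33.1%) and 7 of 8 of 30 to 100 kb (57.2%). Among longer genes it was 3 of 5 of 100 to 300 kb (81.7%), 11 of 13 of 300 to 1000 kb (90.9%) and 10 of 10 over 1000 kb (95.9%).

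**Figure D3:**
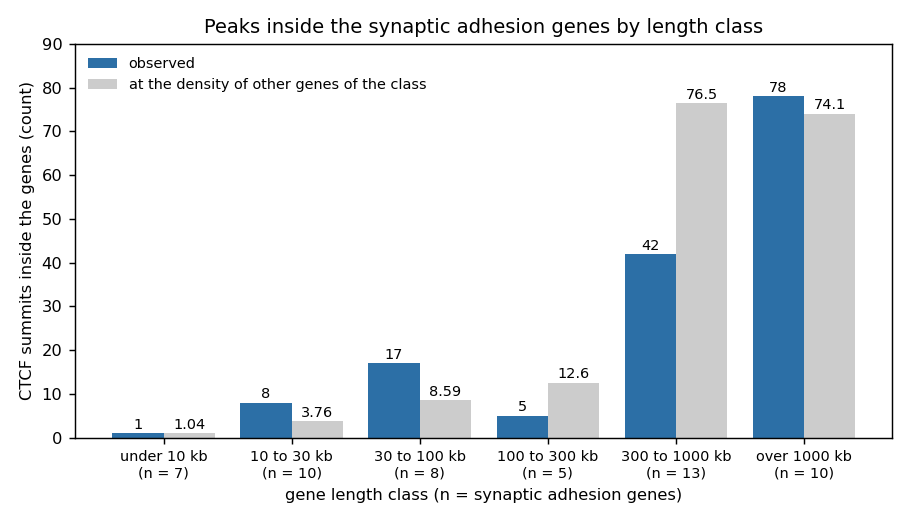
Bars give the count of CTCF summits inside the synaptic adhesion genes of each length class, beside the count expected at the density of other protein-coding genes of that class. The observed bar is the higher one from 10 to 100 kb (8 against 3.76 and 17 against 8.59) and the lower one from 100 to 1000 kb (5 against 12.6 and 42 against 76.5).

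Most inside peaks were carried by 10 genes. Lsamp, Ntm, Nrxn3, Cntnap2, Tenm2, Opcml, Ptprd, Tenm4, Lrrc4c and Negr1 held 96 of the 151, or 63.6%, over 56.3% of the length, and the other 43 genes held 55. These 10 were picked by their counts, so a share of peaks above their share of length follows in part from the choice. Longer genes held more inside peaks across the 53 genes (Spearman's rho 0.70, a description across genes that share the 2 libraries). Genes of like length still differed widely: Cadm2 and Ntm are 965.5 and 968.5 kb long and held 1 and 14.

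**Figure D4:**
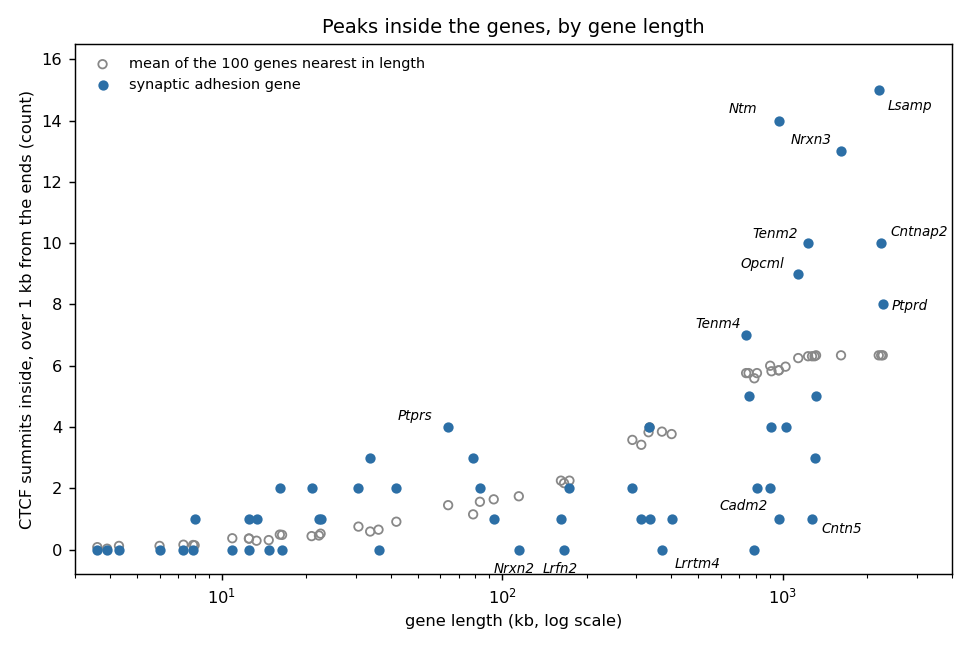
Filled points give the number of summits inside each gene against its length in kb on a log axis, and open points the mean of its 100 nearest genes in length. Lsamp, Ntm and Nrxn3 stand above the open points, and Lrrtm4 at 0 and Cadm2 and Cntn5 at 1 stand under them.

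The median strength of inside peaks was 159.8 (middle range 84.5 to 259.8), against 152.2 inside all protein-coding genes (76.1 to 290.0) and 153.3 inside those of 300 kb or more (77.7 to 267.5). The medians differed by far less than these ranges. The second column exceeded the first more in these peaks than at the ends, with a median log2 ratio of 2.25 against 0.38, and the same held over all protein-coding genes (1.95 inside and 0.40 at ends). How depth enters that difference was not tested. Along the 18 genes of 300 kb or more with a strand and an inside peak, 18.7% of 107 inside peaks fell in the first 25% of the gene, against 27.7% of 1791 peaks in 373 other genes of that length. The median place was the same in both, 0.52 of the way from the 5′ end. Among the inside peaks of the 42 genes with RefSeq start windows, 5 lay within 1 kb of such a start of the same gene. Inside peaks of the genes without a window, such as the 8 of Ptprd, could not be placed in this way. Of all 151 inside peaks, 5 lay within 1 kb of an end of another gene. No background share was computed for either count.

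**Figure D5:**
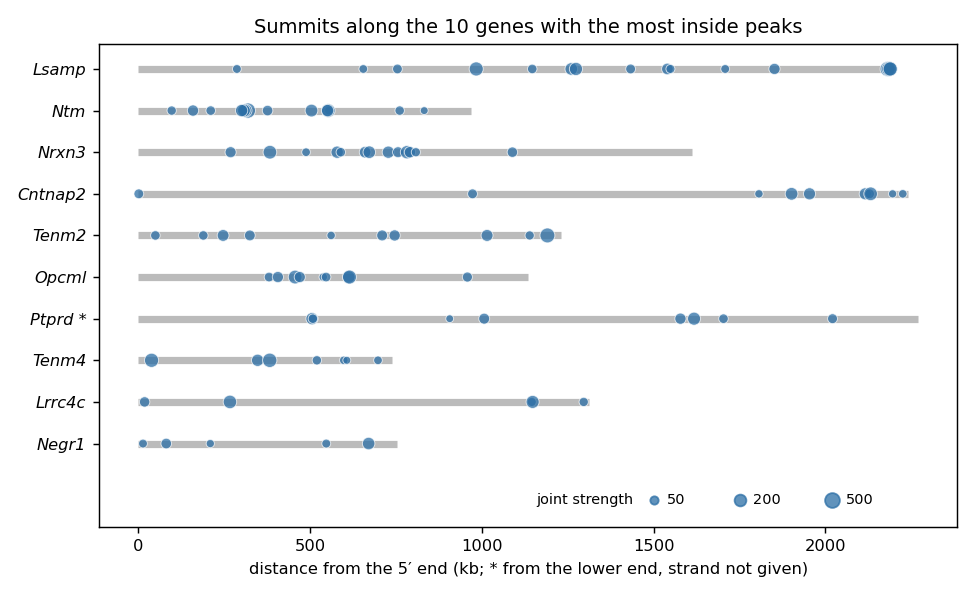
Each row is 1 of the 10 genes with the most inside peaks, and each mark is an inside summit, sized by its joint strength and placed by its distance in kb from the 5′ end of the gene (from the lower end for the gene with an asterisk, which has no strand). The summits of Nrxn3 and Opcml gather in the second 25% of the gene and those of Cntnap2 in the last.

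Flank peaks numbered 91. Of 11 genes with 4 or more, 9 are under 100 kb, or 36.0% of the 25 listed genes of that length (exact 95% interval 18.0 to 57.5%), against 33.6% of other protein-coding genes under 100 kb and 31.8% of all. They were led by Lrfn3 with 8, Flrt1 with 7, and Adgrl1, Cadm4 and Lrrc4b with 6 each. Flank peaks stood on both sides of 14 genes, or 26.4% (exact 95% interval 15.3 to 40.3%), against 46.5% of all protein-coding genes and 32.9% at the same lengths. The strongest were the peak of 1318 beside Lrfn3, one of 1283 at 8592 bp past the 3′ end of Lsamp, and one of 1255 at 27326 bp from Cadm4. Lsamp thus had strong peaks at its start, before its end and beyond it.

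The same counts were made for a second list of 46 other synaptic adhesion and organiser genes. An end peak was present in 28, or 60.9% (exact 95% interval 45.4 to 74.9%), against 36.9% at the same lengths and 29.2% of all protein-coding genes. An inside peak was present in 35, or 76.1% (61.2 to 87.4%), against 61.7% and 35.5%, and a flank peak in 32, or 69.6% (54.2 to 82.3%), against 73.6% and 77.1%. The strongest end peaks were those of Ntng2, a netrin-G, at 2005, Sdk1, a sidekick, at 1163, Cbln2 at 955 and Cbln1 at 620, both cerebellins that bridge neurexins to their partners, and Igsf9 at 606. The end share of each list lay within the interval of the other.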

How the data were processed

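Peaks of 2 CTCF immunoprecipitations, with 2 inputs, were analysed from the joint peak list. MACS2, SAMtools, BWA, Trimmomatic and FastQC were used on the builds GRCm38.p6 and mm10, per the submitters' processing notes, which as read here give no roles or versions. The peak caller's threshold, and whether it used the inputs, were not given in the sources used here. By its 20 columns, the list is the output of the IDR program for a pair of replicates, at a threshold of 0.05. The −log10 p of each replicate peak, their sum and the −log10 of the IDR are values the authors deposited, and the unknown depth of each library enters them. The deposited score, a rescaled IDR, was not used in any result. The other deposited column used was the summit offset in bp. No input values were analysed here, and the spread between replicates is known only from the replicate columns.

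Genes were those of the RefSeq table of GRCm38.p6 (49591 genes, 21770 protein-coding), without 348 genes on scaffolds, 113 of them protein-coding. Same-length shares came from the other protein-coding genes of 6 length classes, bounded at 10, 30, 100, 300 and 1000 kb and weighted by the listed genes in each. The 95% intervals are exact (Clopper-Pearson for shares, Poisson for counts) and hold counting error alone. No test between conditions was possible. All listed genes are named by family, with values for every end peak and for the 10 genes with the most inside peaks; of the second list, the 5 strongest end peaks are named. The rule for the genes uses names and families and no measured value, but the genes, lists and motif were chosen with earlier results of these data known. Peak placement was tested on simulated data. The scripts used scipy 1.17.1, pandas 2.3.3, matplotlib 3.10.9 and numpy 2.4.6 under Python 3.11.15.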

Additional observations from a re-analysis of the deposited data

How the results depend on the processing

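Of 80 values recomputed under alternatives, 64 stayed within the limit set for them (a ratio for counts, an interval or spread for other values), 15 moved past it and 1 changed sign. Some of these outcomes were fixed in advance. The alternative with the 100 nearest genes changes only the background, so the counts and density of the listed genes could not move. A replicate column is a part of the joint strength, so its medians had to be lower. The sign change was the flank share minus that of genes of the same length, at 5.64 percentage points with flanks of 20 kb against −6.55 with 50 kb; over 9 alternatives it ran from −16.7 to 5.64. The end share minus that of genes of the same length ran from 1.88 to 18.6 points over 10 alternatives, and the inside share from 6.06 to 13.2 over 9. The count of genes with an end peak, 27, was 15 with a window of 500 bp, 42 with 5 kb, 13 when peaks had to exceed the median strength and 12 when they had to exceed the second column's median. The share of genes of the same length fell under these 2 filters as well. It was 24.5% against 18.1% at the same lengths for the 13 genes, and 22.6% against 14.8% for the 12. The count with a flank peak, 33, was 21 when peaks had to exceed the first column's median, or 39.6% against 49.8% at the same lengths. Inside peaks per 100 kb, 0.589, were 0.437 at an IDR of 0.01 or less, 0.273 for peaks past the median strength, 0.234 for those past the first column's median, 0.292 for those past the second's, and 0.724 without the genes over 1000 kb; without those genes, observed over expected was 0.712 against 0.855. These densities fall because fewer peaks enter, except the last, where other genes remain. The median inside strength, 159.8, was 216 at the stricter IDR, 24.1 in the first column and 128 in the second; in the same order the median end strength, 136, was 263, 45.5 and 70.4, so at the stricter IDR and in the first column the end median was the higher one. The cause of the flank change was not tested. No paired analysis was possible because the result comes from no test and the list joins both replicates, so leaving out a replicate was not possible either. Depth is unknown, so an absent peak says only that none passed the authors' threshold.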
